A study of Mus musculus with 12 samples.

Results

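The 34 endothelial genes described here are textbook markers of the cells that line blood vessels, followed across sorted prostate epithelial cells of wild-type male mice. They were chosen by name with earlier results of these data known, so their counts beside shares of all genes are descriptions. Each was represented by its brightest probe set with a single gene symbol. Of the 34, 33 had such a probe set and were tested, among 20135 genes in all. Rasip1 had none and has no value below, and each of the 33 rested on 1 probe set. All 33 with a probe set passed the filter.

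RNA of 12 cell samples from hormone-naïve animals was profiled on arrays. The cells lacked CD45, CD31 and Ter119 and were sorted on Sca1 and CD49f. CD31 is the protein product of Pecam1 and the usual surface marker for removing endothelial cells, so the gate itself was drawn against the cell type that these genes mark. The groups were Sca1-high cells (high Sca1, CD49f-positive) that were LY6D+ or LY6D-, basal cells (intermediate Sca1, CD49f-positive) that were LY6D+ or LY6D-, and luminal cells (low Sca1, low CD49f) that were LY6D+ or LY6D-. LY6D is a surface protein by which each gate was divided. Each of the 6 groups held 2 mice: mice 1 and 5 for Sca1-high, mice 3 and 5 for basal and mice 4 and 5 for luminal cells. Within a gate, LY6D+ and LY6D- libraries were from the same mice, and mouse 5 gave a library to every group. Strain and age are not given in the sources used here.

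The RNA signal of the sorted marker's gene followed the LY6D labels in 3 of 6 pairs of libraries. Cells were sorted on the surface protein, which the arrays do not measure. Ly6d was 5.54 and 4.70 in Sca1-high LY6D+ cells and 4.96 and 7.37 in Sca1-high LY6D- cells, 5.93 and 5.96 in basal LY6D+ cells and 4.86 and 6.03 in basal LY6D- cells, and 4.81 and 5.20 in luminal LY6D+ cells and 5.11 and 4.61 in luminal LY6D- cells, with the value of mouse 1, 3 or 4 first and that of mouse 5 second. It was lower in the library labelled LY6D+ in the Sca1-high (-2.67) and basal (-0.06) pairs of mouse 5 and the luminal pair of mouse 4 (-0.30). In the tests described below, Ly6d did not pass between LY6D+ and LY6D- cells of any gate. The highest Ly6d signal of all 12 libraries, 7.37, was in a library labelled LY6D-, the Sca1-high one of mouse 5. LY6D+ and LY6D- below mean libraries so labelled, and each direction drawn between them rests on those labels. Exchanging the labels of a pair would turn the sign of its LY6D difference. Medians that change without the Sca1-high pair of mouse 5, and differences of members whose calls change, are given also without it.

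Values are log2 signals on the deposited scale. A difference of 1 is a doubling of signal, and signals of different genes are not compared because their probes differ. A lower quartile of 2.98 over all values marks the dim end of the scale. Tests are from limma over all 20135 genes with Benjamini-Hochberg adjustment at 0.05. The libraries within a group came from different mice, so the spread behind the p-values includes differences between mice. Libraries of different groups that share a mouse enter the tests as if independent, and the p-values do not allow for that sharing. Paired values of members keep that order of mice. Gate values are means ± SD over 4 libraries (n = 4), and differences are log2 ± SE.

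Endothelial cells hold to each other through VE-cadherin (Cdh5), PECAM1 and tight junction proteins. They survive and sprout under VEGF and angiopoietin signals read by the receptor kinases KDR, FLT1 and TEK. ETS factors such as ERG and SOX factors such as SOX17 and SOX18 maintain their gene programme. In the prostate, as elsewhere, capillaries run in the stroma just outside the basal epithelial layer. Several of these genes are not exclusive to endothelium: Cd34 and Aqp1 are also found in stromal or other cells, Fabp4 in adipocytes and macrophages, and Icam2 in leukocytes and platelets.

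Promoter windows of the members from RefSeq (GRCm38.p6) were examined as a description. The table held windows for 16 of the 34 members, 21 windows in all, and the 250 bases before each start were searched. The windows of Emcn, Adgrl4 and Ctla2a are printed, since these genes passed the test between gates. Fabp4, which also passed it, is named only. Capitals mark exact matches, on either strand, to the ETS cores CCGGAA and CAGGAA, the GATA core AGATAA and the SOX cores AACAAT and ACAAAG.
Emcn, chr3:137340828-137341077, plus strand: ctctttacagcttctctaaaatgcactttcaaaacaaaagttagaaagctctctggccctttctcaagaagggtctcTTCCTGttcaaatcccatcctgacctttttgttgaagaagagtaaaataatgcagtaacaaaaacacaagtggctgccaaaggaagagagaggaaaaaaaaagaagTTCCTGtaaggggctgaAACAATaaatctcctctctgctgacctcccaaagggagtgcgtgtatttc
Adgrl4, chr3:151437632-151437881, plus strand: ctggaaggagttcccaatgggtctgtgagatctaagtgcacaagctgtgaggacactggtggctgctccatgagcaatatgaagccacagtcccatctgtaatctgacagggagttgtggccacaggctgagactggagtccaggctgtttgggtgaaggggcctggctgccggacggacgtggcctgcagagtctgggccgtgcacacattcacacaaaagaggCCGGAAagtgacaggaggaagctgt
Ctla2a, chr13:60936626-60936875, minus strand: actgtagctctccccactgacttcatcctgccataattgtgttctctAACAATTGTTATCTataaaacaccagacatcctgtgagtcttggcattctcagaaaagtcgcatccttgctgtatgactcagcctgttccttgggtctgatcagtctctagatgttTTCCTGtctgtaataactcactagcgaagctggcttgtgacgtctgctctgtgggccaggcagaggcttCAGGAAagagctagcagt
In the Emcn window the letters of CAGGAA stood on the other strand at -173 and -67 from the start, and AACAAT stood at -50. Adgrl4 held CCGGAA at -25. Ctla2a, at the more upstream of its overlapping starts, held AACAAT on both strands at -203 and -199, AGATAA on the other strand at -195, overlapping that second match, and CAGGAA at -87 (other strand) and -18. Over the members, CAGGAA was found in 12 of 21 windows (57.1%), against 25.7% of 32851 windows in the whole table. CCGGAA was in 9.52% of member windows and 12% of all windows, AGATAA in 9.52% and 9.99%, AACAAT in 19% and 9.42%, and ACAAAG in 14.3% and 16.5%. A match of 6 letters is a description of sequence and not a bound site, and overlapping starts of a gene share bases. Members with CAGGAA included Emcn and Ctla2a, which varied much across libraries, Egfl7 and Tie1, which varied little, and Rasip1, which has no value. A link of the matches to the signals was not tested.

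The mean of the members set 6 of the 12 libraries above the other 6. This mean signal per library was 5.80 and 7.06 in Sca1-high LY6D+ cells and 6.90 and 5.69 in Sca1-high LY6D- cells. It was 4.49 and 4.49 in basal LY6D+ cells but 6.41 and 6.36 in basal LY6D- cells. In luminal cells it was 4.48 and 4.73 with LY6D and 4.60 and 4.52 without. All 4 Sca1-high and both basal LY6D- libraries thus lay above all 6 others, which spanned 4.48 to 4.73. The pooled SD within groups was 0.512, but the groups were unequal. The SD was 0.89 in Sca1-high LY6D+ and 0.86 in Sca1-high LY6D- cells, against 0.18 or less in each other group. The tests share an estimate of spread over all groups. In such bulk samples, fewer cells of a type and less RNA per cell cannot be told apart.

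**Figure D1:**
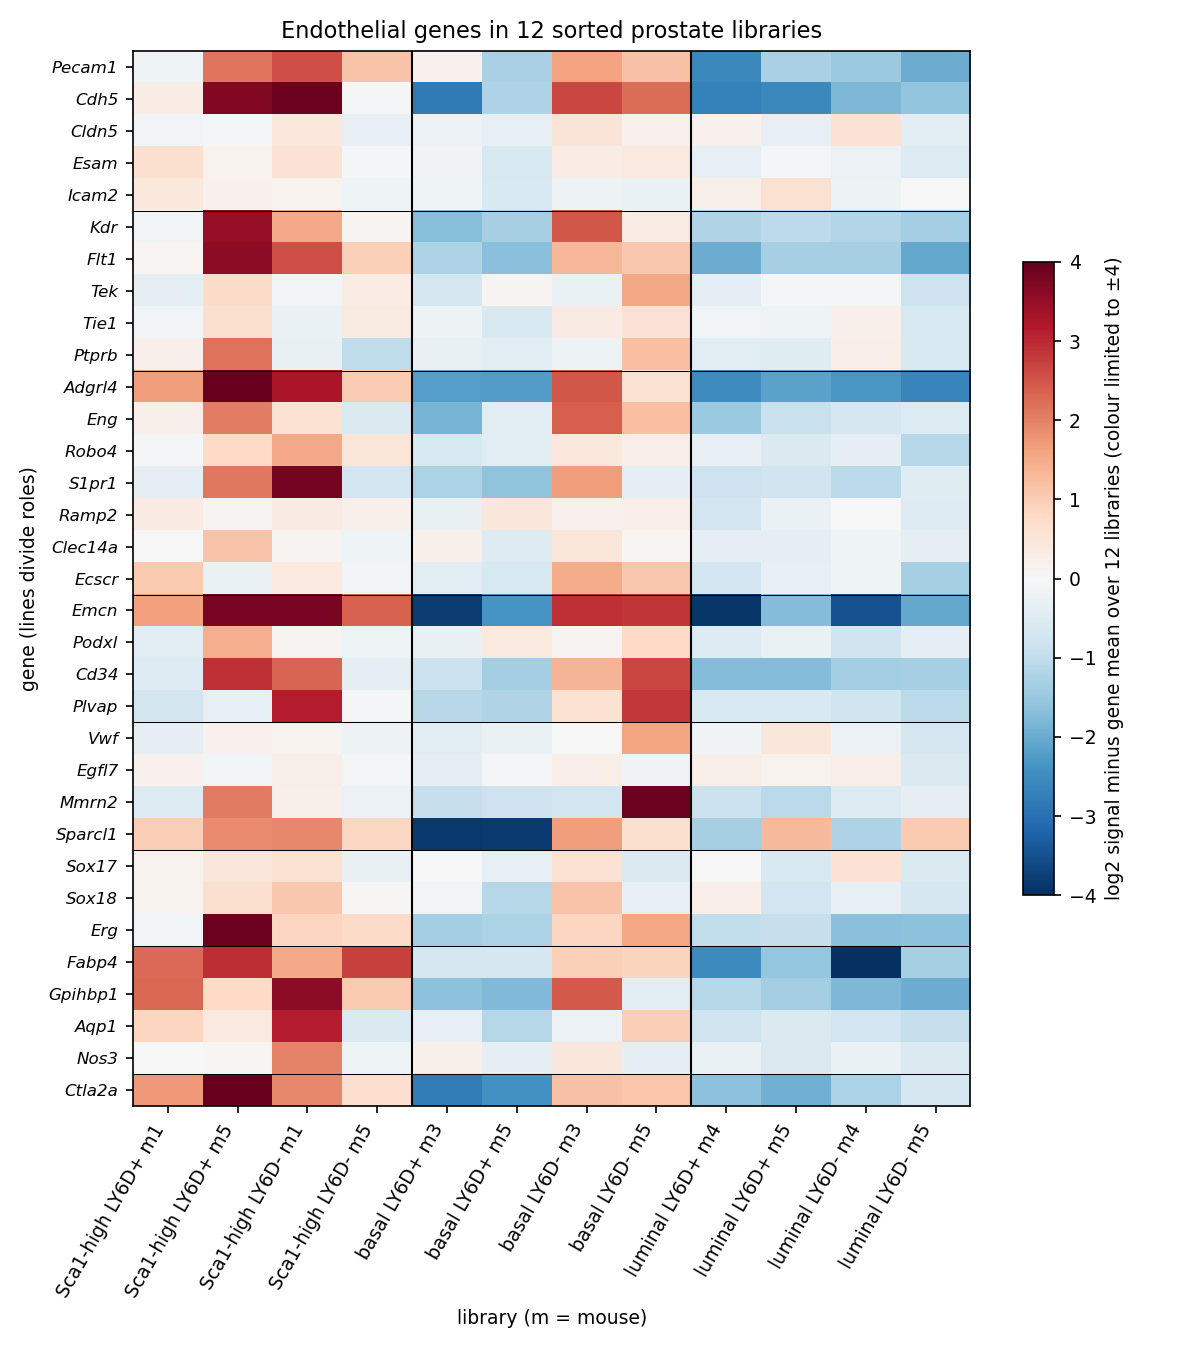
Log2 signal of each of 33 endothelial genes in each of 12 libraries, as the difference from that gene's mean over the libraries (colour, limited to ±4); vertical lines divide the gates and horizontal lines the roles. Red fields gather in the 4 Sca1-high and the 2 basal LY6D- libraries, and the basal LY6D+ and luminal libraries are mostly blue; Cldn5, Icam2 and Egfl7 stay pale throughout.

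The members did not vary alike. The highest minus the lowest library had a median of 4.24 over the 33 members, against 1.19 over all genes tested. It exceeded 5 in 13 members, with Emcn (7.68), Adgrl4 (7.62) and Fabp4 (7.5) at the top, and was under 1.5 in 7: Cldn5, Esam, Icam2, Tie1, Ramp2, Egfl7 and Sox17. As a description over 12 libraries, which share mice, each member's Pearson r with the mean of the other members had a median of 0.735. It ran from 0.09 for Icam2 and 0.21 for Egfl7 to 0.97 for Flt1 and Cdh5. The group with the highest mean was Sca1-high LY6D+ for 12 members, Sca1-high LY6D- for 9, basal LY6D- for 10 and luminal LY6D+ for 2 (Icam2 and Egfl7). It was basal LY6D+ or luminal LY6D- for 0.

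The Sca1-high gate was compared with the luminal gate to see how the subpopulation with high Sca1 differs from luminal cells. Emcn, Fabp4, Ctla2a and Adgrl4 rose, by 3.51 to 5.69 on the log2 scale, so that 4 of 33 members passed the test, all higher in Sca1-high cells. Over all genes 28 passed (0.139%), 8 of them higher (0.0397%) and 20 lower (0.0993%). The median difference of the members was 1.28, against 0.07 over all genes tested, and 31 of 33 were above 0, as were 59.8% of all genes. All 4 Sca1-high libraries lay above all 4 luminal ones for 15 of 33 members, against 3.57% of all genes. An unadjusted p under 0.05 on the higher side was reached by 17 members and by 4.03% of all genes, and on the lower side by 0 members and 4.38% of all genes.

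Among sialomucins and surface glycoproteins, Emcn encodes endomucin, a mucin-like protein of venous and capillary endothelium. Its signal was 9.08 and 11.22 in Sca1-high LY6D+ cells, 11.22 and 9.79 in Sca1-high LY6D- cells, 3.62 and 5.06 in basal LY6D+ cells, 10.34 and 10.27 in basal LY6D- cells, 3.55 and 5.68 in luminal LY6D+ cells and 3.95 and 5.37 in luminal LY6D- cells. Every Sca1-high and basal LY6D- library was at 9.08 or more and every other library at 5.68 or less. Emcn averaged 10.33 ± 1.07 in Sca1-high and 4.64 ± 1.05 in luminal cells, a difference of 5.69 ± 0.66 (adjusted p = 0.0203, limma). Cd34, a related sialomucin of vessels and of some progenitor cells, was 5.07 and 8.52 in Sca1-high LY6D+ cells, 7.92 and 5.20 in Sca1-high LY6D- cells, 4.71 and 4.24 in basal LY6D+ cells and 6.96 and 8.26 in basal LY6D- cells, with 3.84 and 3.85 in luminal LY6D+ and 4.21 and 4.24 in luminal LY6D- cells. The Sca1-high and luminal libraries did not overlap, although 1 library of each Sca1-high group stood near 5. The Cd34 difference of 2.64 ± 0.77 did not pass (adjusted p = 0.371, limma). Podxl, also a sialomucin, and Plvap, which forms the diaphragms of fenestrated capillaries, differed by 0.73 ± 0.39 and 1.28 ± 0.67 with overlapping gates. Plvap reached 8.52 in the Sca1-high LY6D- library of mouse 1 and 8.19 in the basal LY6D- library of mouse 5, against 5.97 or less in the other 10.

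Of the 7 other receptors and co-receptors, Adgrl4 passed. It encodes an adhesion G protein-coupled receptor of endothelium. Its signal was 7.41 and 10.70 in Sca1-high LY6D+ cells, 9.0 and 6.75 in Sca1-high LY6D- cells, 3.53 and 3.5 in basal LY6D+ cells and 8.22 and 6.34 in basal LY6D- cells, with 3.21 and 3.59 in luminal LY6D+ and 3.40 and 3.08 in luminal LY6D- cells. The luminal and basal LY6D+ libraries were close to the dim end of the scale, and no library lay between 3.59 and 6.34. Adgrl4 averaged 8.46 ± 1.76 in Sca1-high and 3.32 ± 0.22 in luminal cells (5.14 ± 0.74, adjusted p = 0.0469, limma). Robo4, a guidance receptor of vessel walls, and Ramp2, which pairs with Calcrl to form an adrenomedullin receptor, differed by 1.30 ± 0.30 and 0.64 ± 0.23, again with no overlap of gates. Eng, a co-receptor for BMP and TGF-beta ligands, S1pr1, the receptor for sphingosine 1-phosphate, Ecscr and Clec14a differed by 0.58 to 2.0, and their gates overlapped.

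Of 4 genes of lipid, water and gas handling, Fabp4 passed. This gene, which encodes a fatty acid carrier of capillaries, was 11.68 and 12.37 in Sca1-high LY6D+ cells, 10.93 and 12.13 in Sca1-high LY6D- cells, 8.75 and 8.72 in basal LY6D+ cells, 10.36 and 10.30 in basal LY6D- cells, 6.85 and 7.86 in luminal LY6D+ cells and 4.87 and 8.08 in luminal LY6D- cells. The 3 gates did not overlap, in the order Sca1-high, basal, luminal. Fabp4 averaged 11.78 ± 0.64 in Sca1-high and 6.91 ± 1.46 in luminal cells (4.86 ± 0.62, adjusted p = 0.0293, limma). Gpihbp1, which anchors lipoprotein lipase on the capillary surface, was 8.61 and 7.12 in Sca1-high LY6D+ cells, 9.89 and 7.38 in Sca1-high LY6D- cells, 4.69 and 4.55 in basal LY6D+ cells and 8.77 and 5.88 in basal LY6D- cells, with 5.18 and 4.92 in luminal LY6D+ and 4.53 and 4.34 in luminal LY6D- cells. Here too every Sca1-high library exceeded every luminal one, and the difference of 3.51 ± 0.69 missed the threshold (adjusted p = 0.138, limma). Nos3, the endothelial nitric oxide synthase, differed by 0.89 ± 0.43 and the water channel Aqp1 by 1.74 ± 0.68, each with its highest value, 7.06 and 9.12, in the Sca1-high LY6D- library of mouse 1.

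Ctla2a encodes a small protein related to the propeptide of cathepsins. It was 6.56 and 9.0 in Sca1-high LY6D+ cells, 6.77 and 5.51 in Sca1-high LY6D- cells, 2.04 and 2.41 in basal LY6D+ cells, 6.0 and 5.96 in basal LY6D- cells, 3.19 and 2.90 in luminal LY6D+ cells and 3.56 and 4.16 in luminal LY6D- cells. Both basal LY6D+ values were below 2.98, the lower quartile, and no Sca1-high library overlapped the luminal ones. The means were 6.96 ± 1.47 in Sca1-high and 3.45 ± 0.54 in luminal cells (3.51 ± 0.49, adjusted p = 0.0414, limma).

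The 5 junction and adhesion genes had unlike values. Pecam1, the gene for the protein used to exclude endothelial cells, was 6.84 and 9.16 in Sca1-high LY6D+ cells, 9.58 and 8.14 in Sca1-high LY6D- cells, 7.18 and 5.70 in basal LY6D+ cells, 8.62 and 8.19 in basal LY6D- cells, 4.43 and 5.73 in luminal LY6D+ cells and 5.53 and 5.03 in luminal LY6D- cells. The Sca1-high and luminal libraries did not overlap, and the highest Pecam1 value, 9.58, was found in cells sorted as negative for its protein. The difference was 3.25 ± 0.58 (adjusted p = 0.113, limma). Cdh5 was 7.40 and 10.80 in Sca1-high LY6D+ cells, 11.02 and 7.01 in Sca1-high LY6D- cells, 4.26 and 5.88 in basal LY6D+ cells and 9.78 and 9.33 in basal LY6D- cells, against 4.39 and 4.52 in luminal LY6D+ and 5.31 and 5.52 in luminal LY6D- cells. It differed between Sca1-high and luminal cells by 4.12 ± 0.92 without passing (adjusted p = 0.194, limma). Esam differed by 0.62 ± 0.22, while Cldn5, the main claudin of endothelial tight junctions, differed by -0.01 ± 0.27 and Icam2 by -0.03 ± 0.19. Cldn5 stayed between 4.0 and 5.03 in all 12 libraries.

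Among receptor kinases and their phosphatase, the VEGF receptors Flt1 and Kdr had the larger values, at 3.45 ± 0.68 and 2.45 ± 0.74, with Sca1-high above luminal libraries throughout. The angiopoietin receptor Tek, the related kinase Tie1 and the phosphatase Ptprb, which acts on TEK, differed by 0.34 to 0.60 and overlapped. Of the transcription factors, Erg differed by 2.67 ± 0.69 with no overlap, and Sox17 and Sox18 by 0.38 ± 0.36 and 0.85 ± 0.42 with overlap. Of the secreted and matrix proteins, Sparcl1, a matricellular protein, differed by 1.46 ± 0.65, Mmrn2 by 1.10 ± 0.90, Vwf, the platelet-binding factor of endothelium, by 0.08 ± 0.34 and Egfl7 by 0.03 ± 0.23. None of the genes named in these sentences passed (adjusted p between 0.138 and 0.983, limma).

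**Figure D2:**
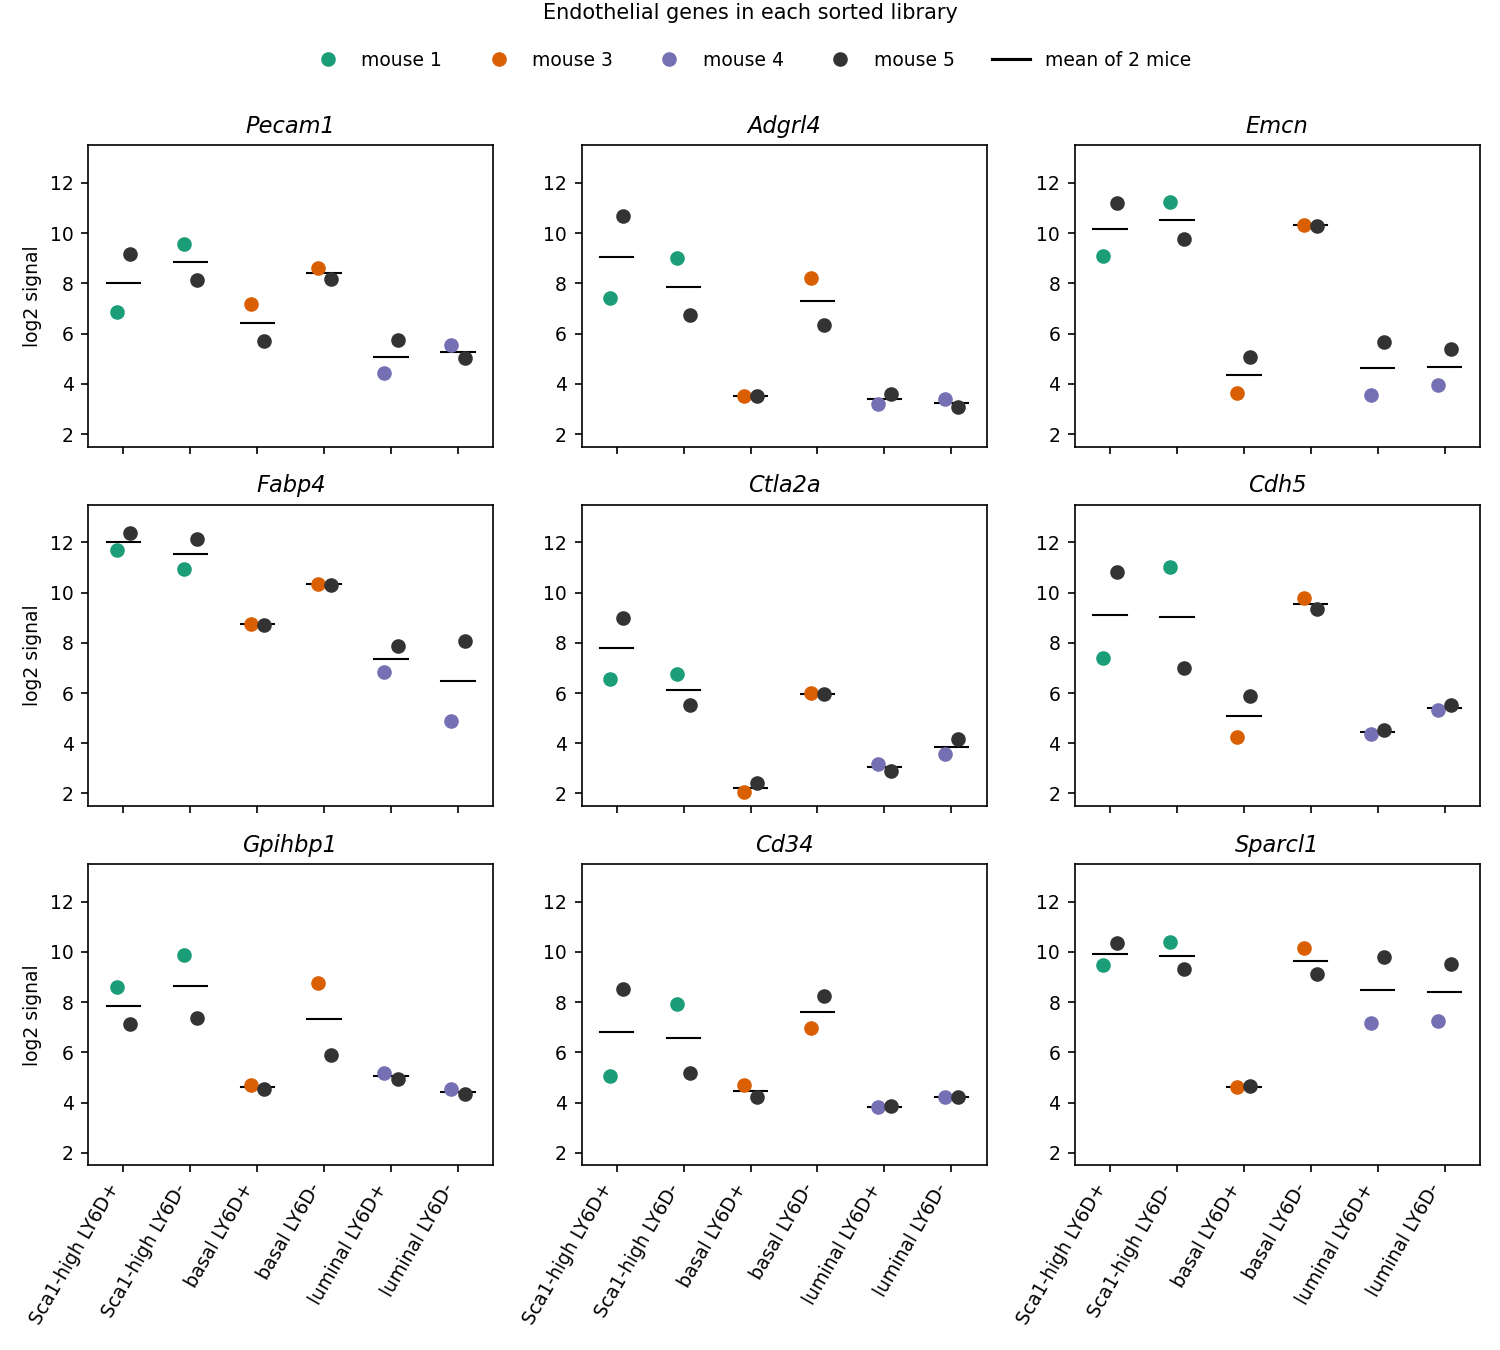
Log2 signal of 9 endothelial genes in every library (points, coloured by mouse) with the mean of each group of 2 mice (lines). For Emcn the Sca1-high and basal LY6D- points lie at 9.08 or more and all others at 5.68 or less; Sparcl1 has its lowest group in basal LY6D+ cells (4.63 and 4.64).

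Within the Sca1-high gate the library labelled Sca1-high LY6D+ of mouse 5 held the highest value of 11 members, and that labelled Sca1-high LY6D- of mouse 1 held the highest value of 11 others. The first of these also had the lowest epithelial signal. Its mean over 11 pan-epithelial genes was 5.91, against 7.20 to 8.36 in the other 11 libraries, and its Krt8 and Krt18 signals were 6.48 and 5.30, against at least 8.45 and 10.02 elsewhere. Without that library Emcn still passed (5.15, adjusted p = 0.0467, limma), as did Ctla2a (2.90, adjusted p = 0.0381), whereas Adgrl4 (4.32, adjusted p = 0.0619) and Fabp4 (4.69, adjusted p = 0.0847) did not. Without the Sca1-high LY6D- library of mouse 1 none of the 4 passed, with Emcn at 5.33. Without both Sca1-high libraries of mouse 5, the pair whose Ly6d signals ran most against the labels, Emcn (5.51) and Fabp4 (4.39) no longer passed. Ctla2a then differed by 3.21, Adgrl4 by 4.88, Cdh5 by 4.27 and Flt1 by 2.98. Each Sca1-high group then held 1 library, taken to vary like the other groups. Of the 12 fits that each left out 1 library, Emcn passed in 11, Fabp4 and Ctla2a in 3 each and Adgrl4 in 2. With mouse as a block, which is the pairing the labels give, Fabp4 was the only member to pass (4.28, adjusted p = 0.0294, limma). Emcn was then at 4.97 (adjusted p = 0.0733), Adgrl4 at 5.39 (adjusted p = 0.156) and Ctla2a at 3.72 (adjusted p = 0.144).

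Within mouse 5, which gave both gates, 30 of 33 members were higher in Sca1-high LY6D+ than in luminal LY6D+ cells, with a median difference of 1.49. In its LY6D- cells 28 of 33 were higher, with a median of 0.73. Over all genes 54.2% and 62.2% were higher in these pairs.

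The basal gate was next set against the luminal gate, the other main epithelial layer of the gland. None of the 33 members passed, while 84 genes (0.417%) did over the whole table, 28 higher (0.139%) and 56 lower (0.278%). Of the members, 30 were above 0 (all but Sparcl1, Icam2 and Egfl7), against 45.8% of all genes, with a median of 0.59 against -0.03 over all genes. An unadjusted p under 0.05 was reached by 10 members on the higher side (4.86% of all genes) and by 1, Icam2, on the lower side (4.58% of all genes). The basal libraries overlapped the luminal ones for every member except Fabp4, which averaged 9.53 ± 0.92 in basal and 6.91 ± 1.46 in luminal cells (2.62 ± 0.62, adjusted p = 0.153, limma); for all genes the share with no overlap was 2.58% on the higher side and 3.17% on the lower. The largest differences were in Emcn (2.68 ± 0.66, adjusted p = 0.171, limma), Fabp4, Cdh5 (2.38 ± 0.92), Pecam1 (2.24 ± 0.58), Adgrl4 (2.08 ± 0.74) and Cd34 (2.01 ± 0.77). The lowest was Sparcl1, at -1.29 ± 0.65.

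These basal means each averaged over groups that differed. Both basal LY6D- libraries lay above all 4 luminal libraries for 22 of 33 members, against 5.74% of all genes. Both basal LY6D+ libraries did so for 1 of 33, Fabp4, against 8.42% of all genes. The corresponding counts were 19 for Sca1-high LY6D+ cells (9.76% of all genes) and 19 for Sca1-high LY6D- cells (10.6% of all genes). In mouse 5 alone, 13 of 33 members were higher in basal LY6D+ than in luminal LY6D+ cells (median -0.20), against 41.6% of all genes. In the LY6D- cells of that mouse 31 of 33 were higher in basal than in luminal cells (median 1.74), against 54.5% of all genes.

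Between the Sca1-high and basal gates, none of the members passed, and 2 genes (0.00993%) did over the whole table. The median member difference was 0.49 against 0.11 over all genes, with 28 of 33 above 0 (all but Cldn5, Tek, Ecscr, Podxl and Vwf), against 64.2% of all genes. On the higher side, 9 members had an unadjusted p under 0.05 (4.5% of all genes), and Fabp4 alone had no overlap (2.25 ± 0.62; 4.77% of all genes). On the lower side no member did either (5.32% and 2.26% of all genes). The lowest adjusted p was that of Ctla2a, which averaged 6.96 ± 1.47 in Sca1-high and 4.10 ± 2.17 in basal cells (2.86 ± 0.49, adjusted p = 0.166, limma). Without the Sca1-high pair of mouse 5 the Ctla2a difference was smaller, 2.56. Each Sca1-high group then held 1 library, so its call, which changed, rested on the spread of the basal and luminal groups. Adgrl4 (3.07 ± 0.74), Emcn (3.00 ± 0.66) and Sparcl1 (2.75 ± 0.65) also differed by more than 2.5 without passing. Within mouse 5, 31 of 33 members were higher in Sca1-high LY6D+ than in basal LY6D+ cells (median 1.77), against 60.6% of all genes. In its LY6D- cells 10 of 33 were (median -0.39), against 60.9% of all genes. Each comparison sets 1 library against 1 other. Ly6d ran against the labels of the Sca1-high pair of mouse 5 (4.70 in LY6D+, 7.37 in LY6D-). A dependence on LY6D is thus not settled here, and 0 members passed the interaction test below.

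LY6D+ cells were then compared with LY6D- cells of the same gate, since LY6D was the marker under study. In the basal gate, the signal of all 33 members was lower in LY6D+ cells, and none passed the test. Over all genes 2 passed, both higher (0.00993%). The median member difference was -1.59, against 0.02 over all genes, of which 46.6% were below 0 and 53.4% above. Both LY6D+ libraries lay below both LY6D- libraries for 24 of 33 members, against 10.9% of all genes, and above them for 0 members, against 13.7% of all genes. An unadjusted p under 0.05 on the lower side was reached by 16 members and by 1.08% of all genes, and on the higher side by 0 members and 1.12% of all genes.

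The largest basal difference was in Emcn, whose LY6D+ values of 3.62 and 5.06 stood against LY6D- values of 10.34 and 10.27. The difference was -5.97 ± 0.93 (adjusted p = 0.435, limma), the lowest adjusted p of any member. Sparcl1 had 4.63 and 4.64 in basal LY6D+ cells and 10.17 and 9.13 in basal LY6D- cells, a difference of -5.01 ± 0.92 (adjusted p = 0.747). Its luminal values, 7.17 and 9.78 with LY6D and 7.25 and 9.52 without, and its Sca1-high values, 9.46 and 10.37 with LY6D and 10.40 and 9.32 without, were higher than those of basal LY6D+ cells. For Sparcl1, as for Ctla2a, every luminal library thus lay above both basal LY6D+ libraries. Cdh5 differed by -4.48 ± 1.30, Adgrl4 by -3.77 ± 1.05, Ctla2a by -3.75 ± 0.69, Cd34 by -3.13 ± 1.09 and Pecam1 by -1.97 ± 0.82, all with no overlap. Leaving out the Sca1-high pair of mouse 5 removed no basal library and kept the Ctla2a difference at -3.75. Its call then changed only through the estimate of spread that all groups share, so it adds nothing about the basal cells. Fabp4 differed by less, -1.59 ± 0.87, with 8.75 and 8.72 in LY6D+ and 10.36 and 10.30 in LY6D- cells.

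By role, the basal libraries did not overlap for 4 of 5 junction genes, 4 of 5 kinases and phosphatases, 5 of 7 other receptors, 3 of 4 sialomucins and surface glycoproteins, 3 of 4 secreted and matrix proteins, 3 of 4 lipid, water and gas handling genes and 1 of 3 transcription factors (Erg, -2.52 ± 0.97), as well as Ctla2a. All of these were lower in LY6D+ cells, and 10.9% of all genes had no overlap on that side. Kdr was -2.92 ± 1.05, Flt1 -2.65 ± 0.96 and Eng -2.95 ± 0.71. Cldn5 and Esam, whose gate differences were small, were still lower in both LY6D+ libraries, by -0.63 ± 0.39 and -0.73 ± 0.32. The smallest differences were in Nos3 (-0.12 ± 0.60), Ramp2 (-0.14 ± 0.33) and Icam2 (-0.15 ± 0.27). Mmrn2 rested on 1 library: it was 9.26 in the basal LY6D- library of mouse 5 but 4.56 in that of mouse 3, with 4.42 and 4.49 in LY6D+ cells.

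The basal difference was measured within each mouse. In mouse 3, 32 of 33 members were lower in LY6D+ cells, with a median of -1.23, and in mouse 5 29 of 33 were, with a median of -1.64. The shares of all genes that were lower were 46.9% and 48.1%. Ly6d itself was 1.08 higher in the LY6D+ library of mouse 3, while in mouse 5 its basal values were 5.96 and 6.03. A difference beyond 1 on the lower side was found for 18 members in mouse 3 (2.84% of all genes) and 23 in mouse 5 (4.06% of all genes). On the higher side it was found for 0 in both, where the shares of all genes were also small (5.87% and 2.87%).

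**Figure D3:**
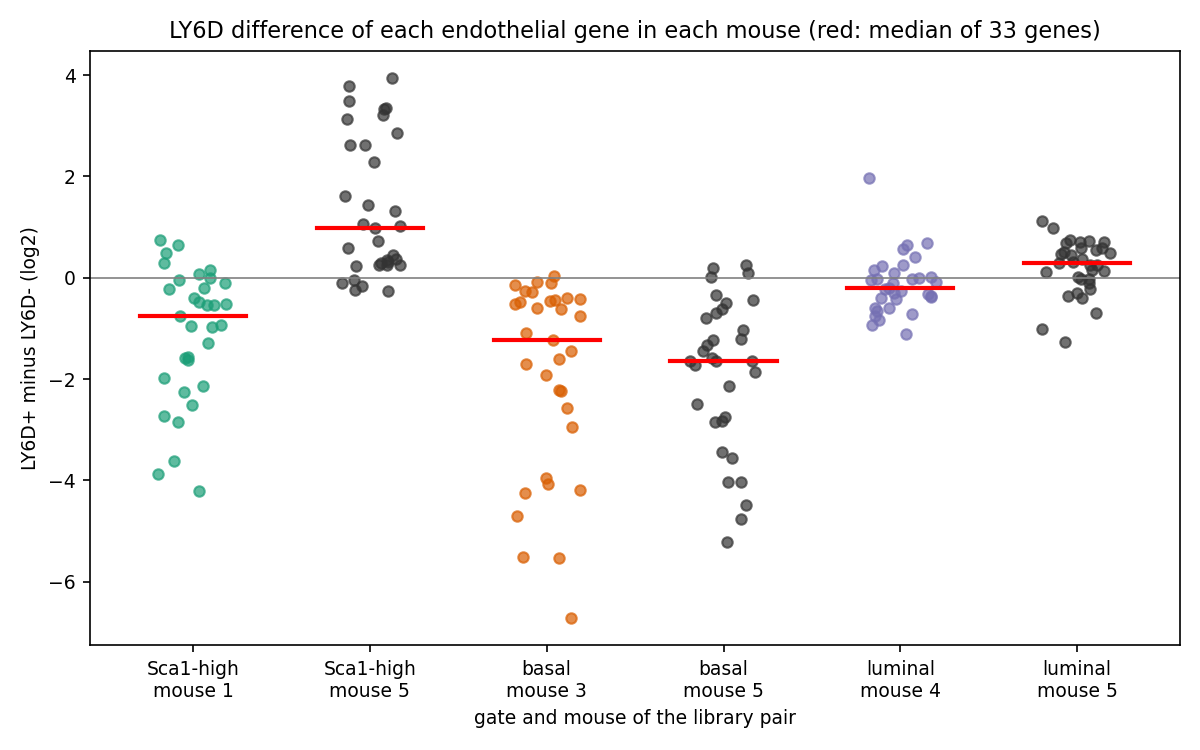
LY6D+ minus LY6D- log2 difference of each of 33 endothelial genes (points) in each pair of libraries of a gate and mouse, with the median of the 33 (red). Both basal pairs lie mostly below 0 (medians -1.23 and -1.64), the Sca1-high pairs have medians of -0.75 in mouse 1 and 0.98 in mouse 5 as labelled, with Ly6d lower in the LY6D+ library of that mouse 5 pair, and the luminal pairs lie near 0.

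In the Sca1-high gate 0 genes passed, the median member difference was 0.11 with 20 of 33 above 0 (45.3% of all genes), and the libraries did not overlap for Ptprb and Icam2 on the higher side (11.8% of all genes) and Plvap on the lower (17.2% of all genes). An unadjusted p under 0.05 was reached by 2 members, Ptprb (1.85 ± 0.66) and Ctla2a (1.64 ± 0.69), both higher (0.914% of all genes), and by 0 lower (1.5% of all genes). As labelled, 26 of 33 members were lower in the LY6D+ library of mouse 1 (57.3% of all genes) and 5 of 33 in that of mouse 5 (50.1% of all genes), where 16 were higher by more than 1 (4.43% of all genes). In mouse 5, however, the library labelled LY6D+ had the lower Ly6d signal, 4.70 against 7.37, as well as the low epithelial signal named above, so the direction of that pair is not settled. Without the pair the median of the gate was that of mouse 1 alone, -0.75. In luminal cells, where Ly6d ran with the labels in mouse 5 and against them in mouse 4, 0 genes passed, the median was 0.09, and 19 of 33 members were above 0 (52.1% of all genes). There Erg, Gpihbp1, Icam2, Plvap and Vwf had no overlap on the higher side (15.4% of all genes) and Cd34, Cdh5, Ctla2a, Eng and Mmrn2 on the lower (12.5% of all genes). An unadjusted p under 0.05 was reached by 0 members (1.48% of all genes higher, 2.08% lower). Over the gates together 0 genes passed, the median was -0.41 (-0.73 without the Sca1-high pair of mouse 5), and Emcn, Cdh5, Sparcl1, Plvap and Ctla2a had an unadjusted p under 0.05 on the lower side (1.54% of all genes).

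Whether the LY6D difference itself differed between gates was tested with interaction terms, and 0 members and 0 genes passed. The lowest adjusted p of a member was 0.972, for Ctla2a in Sca1-high minus basal cells. At an unadjusted p under 0.05 there were 10 members for Sca1-high minus basal, all higher (0.934% of all genes), 10 for basal minus luminal, all lower (0.959% of all genes), and 2 for Sca1-high minus luminal, Ctla2a and Ptprb, both higher (1.34% of all genes). The median member values were 1.11, -1.76 and 0.01. Without the Sca1-high pair of mouse 5, 0 members passed in each, and the lowest adjusted p of a member was 0.408 for Sca1-high minus basal.

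The Sca1-high minus luminal and the basal LY6D comparisons have no library in common, though mouse 5 gave libraries to both. Over the 33 members their differences were related at a Pearson r of -0.75 and a Spearman rho of -0.79, and 31 of 33 had opposite signs. Over all 20135 genes r was -0.18 and 51.1% had opposite signs. Genes are not independent replicates, so this is a description. The count of opposite signs adds nothing to the counts above: all 33 members were below 0 in the basal comparison and 31 above 0 between the gates. Of the 4 members with the largest Sca1-high minus luminal differences, Emcn (5.69 and -5.97), Adgrl4 (5.14 and -3.77) and Cdh5 (4.12 and -4.48) also had large differences in the basal LY6D comparison, whereas Fabp4 had 4.86 and -1.59. Sparcl1, at 1.46 and -5.01, departed from the relation on the other side.

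**Figure D4:**
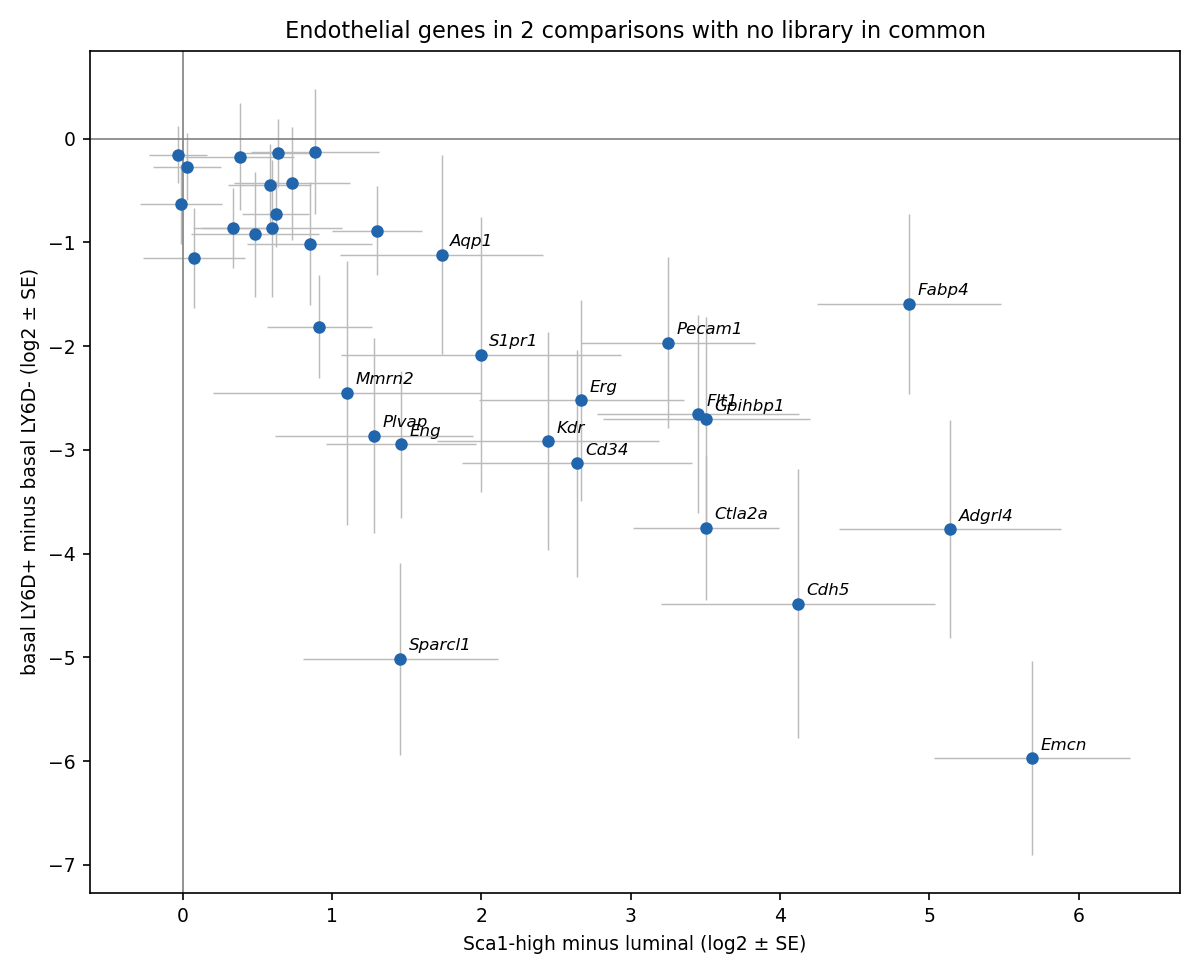
Sca1-high minus luminal difference (x axis, log2 ± SE) against basal LY6D+ minus LY6D- difference (y axis, log2 ± SE) of 33 endothelial genes. Emcn lies at 5.69 and -5.97, and 31 of 33 genes have opposite signs in the comparisons.

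Other endothelial genes outside the members were followed in lists. Of 28 further pan-endothelial genes, 27 were tested and 0 passed in any of these comparisons. In Sca1-high against luminal cells 22 of 27 were above 0 (median 0.69), and in basal LY6D+ against LY6D- cells 6 of 27 were above 0 (median -0.79). Over all genes 59.8% and 53.4% were above 0 in these comparisons, which applies also to the lists below. Jam2, a junction adhesion molecule (2.97 ± 0.50, adjusted p = 0.0833, limma), and Cyyr1 (2.51 ± 0.74) had the largest values between the gates. The list mean was 5.02 and 5.85 in Sca1-high LY6D+ cells, 5.78 and 4.95 in Sca1-high LY6D- cells, 4.63 and 4.47 in basal LY6D+ cells and 5.46 and 5.41 in basal LY6D- cells, with 4.53 to 4.85 in luminal cells. The same libraries were thus high and low as for the members.

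Of 7 genes of venous endothelium, 7 were above 0 in Sca1-high against luminal cells (median 0.48) and 0 in basal LY6D+ against LY6D- cells (median -1.23). Sele and Selp encode the E- and P-selectins that catch leukocytes on venules. Sele was 3.85 and 3.55 in basal LY6D+ cells and 7.89 and 7.97 in basal LY6D- cells, without passing (-4.23 ± 0.80, adjusted p = 0.747, limma). Selp was 4.72 and 5.91 in basal LY6D+ cells and 8.92 and 10.06 in basal LY6D- cells (-4.17 ± 1.08). In both genes the LY6D+ values lay far below the LY6D- values. Of 12 arterial genes, 11 were above 0 in Sca1-high against luminal cells (median 0.35) and 6 in basal LY6D+ against LY6D- cells (median -0.01). Lymphatic genes had 1 of 6 above 0 between these gates (median -0.28).

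Partners of the members' pathways were also followed in Sca1-high against luminal cells, where 59.8% of all genes were above 0. Of 11 VEGF and angiopoietin ligands and co-receptors, 9 were above 0 in Sca1-high against luminal cells (median 0.19), with Nrp1, a VEGF co-receptor, at 1.06 ± 0.36. Of 12 partners of endoglin in BMP signalling, 7 were above 0 (median 0.11), and Id2, a target of that pathway, was at -2.29 ± 0.47. Of 10 partners in adrenomedullin and sphingosine 1-phosphate signalling, 5 were above 0 (median 0.07). In that list Calcrl, the receptor that Ramp2 joins, was 7.56 and 9.84 in Sca1-high LY6D+ cells, 9.18 and 7.33 in Sca1-high LY6D- cells, 4.54 and 4.73 in basal LY6D+ cells and 8.54 and 8.11 in basal LY6D- cells, against 3.52 to 5.65 in luminal cells. Its profile set the same 6 libraries apart (Sca1-high minus luminal 3.65 ± 0.61, adjusted p = 0.0833, limma). None of these lists held a gene that passed between Sca1-high and luminal cells.

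Outside the 33 members, the genes with the profile most like their mean, by Pearson r over 12 libraries, were Calcrl (0.97), Sele (0.95), Gm19663 (0.93), Iigp1 (0.93), Bcl6b (0.92), Jam2 (0.91), Tm4sf1 (0.91), Selp (0.91), Sema7a (0.91) and Marcksl1-ps4 (0.90). Of these 10, 6 stood in the marker lists above. Gm19663 and Marcksl1-ps4 ranged over less than 1 across the libraries.

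Markers of other cell types were set beside these results, and their part in them was not tested. Of 9 mural cell genes, 7 were above 0 in Sca1-high against luminal cells (median 0.20) and 4 in basal LY6D+ against LY6D- cells (median -0.04). Rgs5, a pericyte marker, was 3.86 and 5.79 in basal LY6D+ cells and 8.66 and 7.29 in basal LY6D- cells (-3.15 ± 0.90), with 9.38 to 11.66 in Sca1-high cells and 7.70 to 10.41 in luminal cells. Of 11 pan-epithelial genes, 0 were above 0 in Sca1-high against luminal cells (median -0.71) and 6 in basal LY6D+ against LY6D- cells (median 0.38). Their list mean spanned 5.91 to 7.65 in Sca1-high, 7.28 to 8.36 in basal and 7.31 to 8.04 in luminal cells.

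Myeloid markers were highest in luminal cells. The mean over 13 such genes was 4.66 to 6.01 in Sca1-high, 4.15 to 4.91 in basal and 6.36 to 7.48 in luminal cells, and 1 of 13 was above 0 in Sca1-high against luminal cells (median -1.32). In basal against luminal cells Cd68, Adgre1, Mrc1, Ctss and C1qb fell, and the basal marker Col17a1 rose (2.14 ± 0.32, adjusted p = 0.0322). Of 6 platelet genes tested, 1 passed there, Pf4, which averaged 5.01 ± 0.46 in basal and 7.51 ± 0.99 in luminal cells (adjusted p = 0.0182, limma). Of the 6, 2 were above 0 (median -0.24), against 45.8% of all genes. Fibroblast genes had a list mean of 5.13 to 5.35 in Sca1-high, 4.56 to 5.13 in basal and 4.84 to 5.49 in luminal cells. Erythroid genes, of which 3 of 8 were tested, had a list mean of 3.66 to 4.16 over the libraries.

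**Figure D5:**
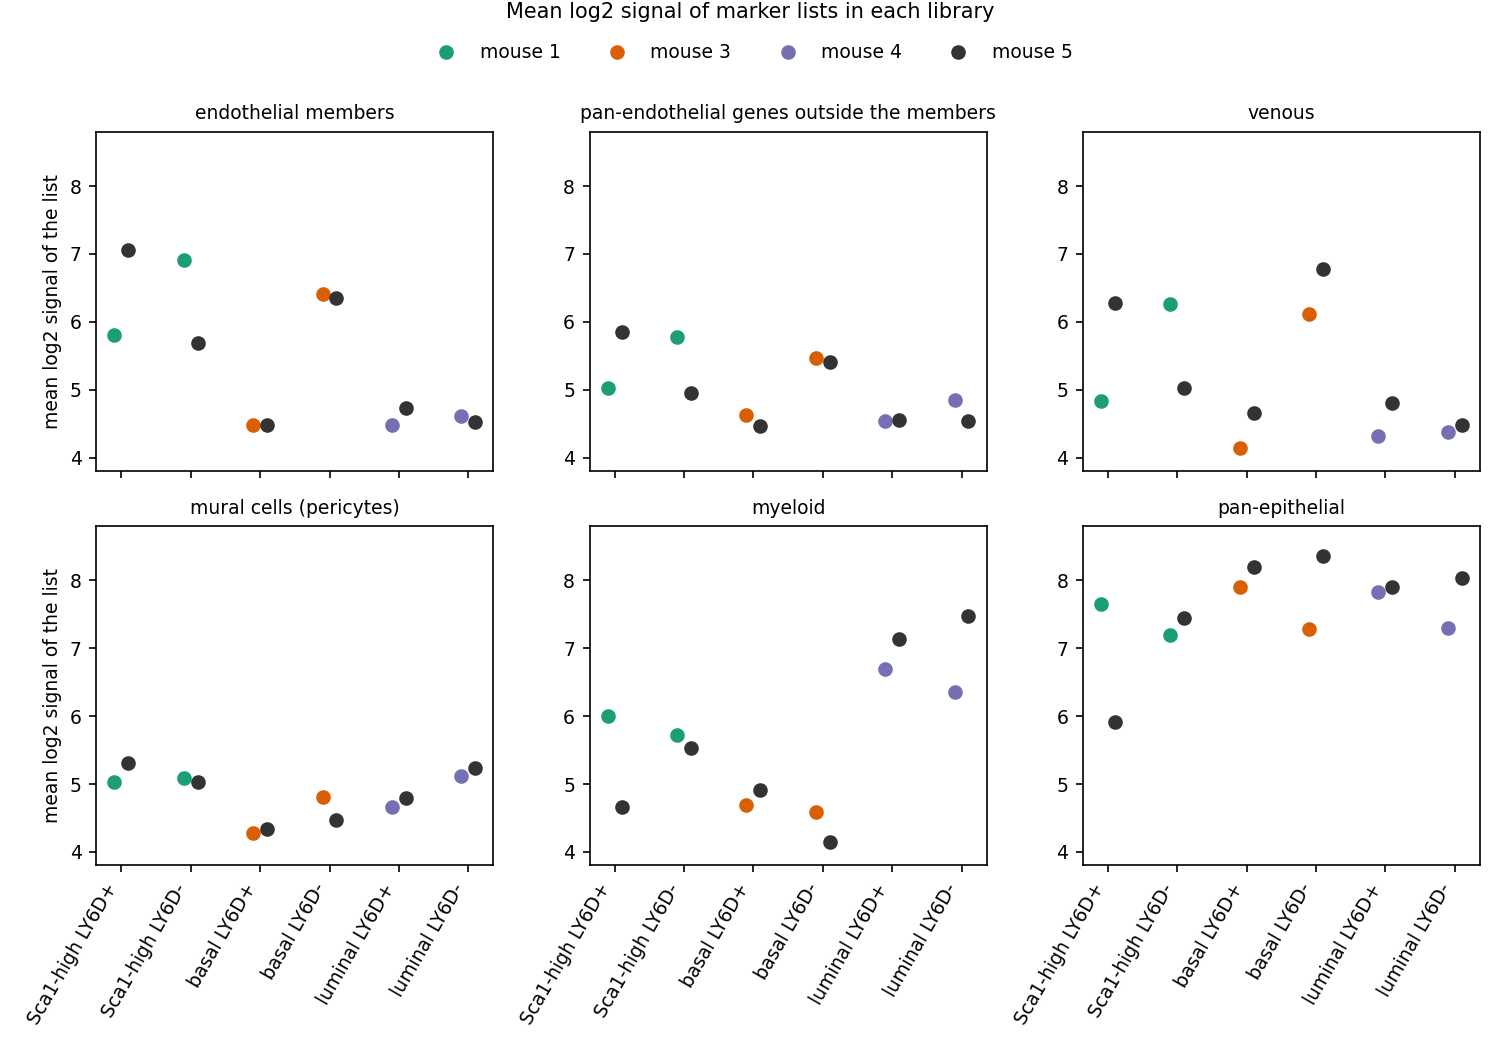
Mean log2 signal of 6 marker lists in every library (points, coloured by mouse). Endothelial members, further pan-endothelial genes and venous genes are highest in Sca1-high and basal LY6D- libraries. In the pan-endothelial and venous lists the highest luminal library is at 4.85 and 4.80. The Sca1-high LY6D+ library of mouse 1 (5.02 and 4.83) and LY6D- library of mouse 5 (4.95 and 5.02) lie close above it. Myeloid genes are highest in luminal cells (6.36 to 7.48), and pan-epithelial genes are lowest in the Sca1-high LY6D+ library of mouse 5 (5.91).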

How the data were processed

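Amplified, biotin-labelled RNA was hybridized, per the labels. The authors deposited log2 values for each probe set. RMA and oligo are the tools named, without versions, in the submitters' processing notes. RMA ordinarily corrects background, normalizes quantiles across arrays and summarises probes. Values ran from 0.695 to 14.3 with array medians of 3.76 to 3.99 and were used unchanged. Scanner files and detection calls were not used here, and the number of arrays limits the precision.

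Of 41345 probe sets, 23521 had a single gene symbol, 1814 several, and 16010 were unnamed here. They gave 22180 genes; the brightest probe set was kept for the 1082 genes with several. Entrez identifiers of 23328 probe sets matched the RefSeq table, changing 0 symbols. Genes with at least 2 arrays above the lower quartile (2.98) were tested.

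The fit used limma 3.58.1 in R 4.3.3, with 6 group means over 12 arrays, default eBayes (residual degrees of freedom 6, prior 3.28) and p-values adjusted by Benjamini-Hochberg over 20135 genes. It was tested on simulated data. Members and marker lists were chosen with earlier results of these data known. Every value was printed for Pecam1, members past the threshold and the 6 largest differences in each of 3 comparisons; of other lists, members past the threshold or the 2 largest. The mouse number in the labels names the animal, which pairs libraries; after removing group means, paired libraries correlated at 0.0220 (luminal), 0.149 (Sca1-high) and 0.407 (basal). Alternatives were no filter, median centring, averaging probe sets, only the groups compared, mouse as a block, leaving libraries out and, chosen after seeing the data, leaving out both Sca1-high libraries of mouse 5. The Sca1 gene, Ly6a, is not analysed here for lack of a singly named probe set.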

Additional observations from a re-analysis of the deposited data

How the results depend on the processing

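In the Sca1-high minus luminal, basal minus luminal and basal LY6D comparisons, no member with values printed for every library changed sign under the alternatives run; signs of single members were not followed in the other comparisons. The member medians for LY6D+ against LY6D- did in 2 gates, with values to -0.12 in luminal and -0.40 in Sca1-high cells when 1 library was left out, and -0.12 in luminal cells without 3 libraries of mouse 5 (basal LY6D+, basal LY6D-, luminal LY6D-). Of the 4 members that passed between Sca1-high and luminal cells, 3 passed with no filter (Adgrl4 missed, adjusted p = 0.0510), 1 with arrays centred on their medians (Emcn), 0 with only the groups compared, 1 with mouse as a replicate block (Fabp4) and 0 without the 3 libraries. The adjusted p of Emcn ran from 0.00839 (without the Sca1-high LY6D+ library of mouse 1) to 0.213 (without the 3 libraries). The cause was not tested, except that settings with fewer samples have fewer degrees of freedom.

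Over all genes, Sca1-high against luminal called 28, but 17 after centring, 13 with only the groups compared, 104 with the replicate block and 0 without the 3 libraries. Basal against luminal called 84, but 31 after centring and 0 without the 3 libraries. Sca1-high against basal called 2, but 80 with the block and 1 with only the groups compared or with probe sets averaged. Basal LY6D+ against LY6D- called 2, but 0 under these 3 settings and without the 3 libraries; luminal LY6D+ against LY6D- called 0, but 1 without them. The block changed no other call of a member. Leaving out both Sca1-high libraries of mouse 5 was chosen after seeing the data. It left 1 library in each Sca1-high group, so the spread came from the other groups. This alternative turned the member median for LY6D in Sca1-high cells to -0.75. It gave 1 member and 10 genes for Sca1-high against basal, 1 member and 5 genes for LY6D in basal cells and 1 gene for LY6D over the gates.

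Leaving out 1 library at a time gave 0 to 8 members between Sca1-high and luminal, 0 to 1 between basal and luminal, 0 to 2 between Sca1-high and basal (median 0.21 to 1.03), 0 to 1 for LY6D in Sca1-high cells and 0 to 2 for the interaction of Sca1-high and basal cells. The 8 and each 2 came without the Sca1-high LY6D+ library of mouse 1, and the 0 between Sca1-high and luminal without the Sca1-high LY6D- library of mouse 1. Genes called ran from 13 to 163, 15 to 254 and 2 to 133 in the gate comparisons, in the same order, and for LY6D from 0 to 66 in luminal, 0 to 17 in Sca1-high, 0 to 3 in basal cells and 0 to 2 over the gates. Without detection calls, values near the lower quartile, as for Ctla2a in basal LY6D+ cells, carry no statement that a transcript was absent.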
